A study of Rattus norvegicus with 6 samples.

Results

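The 3 control cultures of the series were described by themselves, from the 3 of 6 arrays that were hybridized with RNA of dissociated spinal cord cultures grown on polyornithine-coated coverslips. Polyornithine is a positively charged polymer to which neural cells adhere. The spinal cords came from rats of postnatal day 1 to 4, and the cells were kept in medium for about a week before the RNA was taken. The rats were Sprague-Dawley by the labels and Wistar by the study's methods, and the RNA was extracted with TRIzol and the RNeasy kit by the labels and with a Nanoprep kit by the methods. The 3 arrays stand for 3 culture series, with 1 array for each, so that differences between animals, dissections, cultures and array runs cannot be told apart. Each of 14217 genes was represented by 1 probe set, and the values are log2 signals from the RMA algorithm. A difference of 1 on this scale is a 2-fold difference. All 14217 genes were ranked by the mean of the 3 control arrays alone. The arrays of the other substrate took part only in choosing the probe set of the 4525 genes with more than 1. Since probe sets bind their transcripts with different strength, the ranking is an order of probe set signal and not of transcript numbers. Map2, which encodes a microtubule-associated protein of dendrites, had a mean of 11.55 on the probe set used here and of 5.58 on its other probe set. In RNA of a mixed culture, more cells of a type and more RNA per cell cannot be told apart.

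The spinal cord of a newborn rat contains interneurons and motor neurons, astrocytes, which buffer potassium and glutamate, oligodendrocytes, which wrap axons in myelin, and microglia, the resident phagocytes. The meninges and vessels around it carry fibroblasts, smooth muscle cells and endothelium. Dissociation mixes all of these, neurons do not divide, and glia and fibroblasts can multiply in a dish.

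The 3 arrays differed in several technical values. The 24 probe sets of the poly-A spike-in transcripts, bacterial RNAs that are added to a sample before labelling, had a mean signal of 7.62 in control 1, 7.09 in control 2 and 11.27 in control 3. All 24 were highest in control 3, by 1.89 to 5.72 over the higher of the other arrays. The 18 hybridization spike-in probe sets, added after labelling, lay close together, at means of 11.03, 10.45 and 10.61, and all 18 were highest in control 1. For beta-actin, the 3' minus the 5' probe set came to 2.20 in control 1, 0.62 in control 2 and 0.66 in control 3, and for GAPDH to 0.82, 0.18 and 0.22. For hexokinase this difference was 3.27, 4.39 and 2.74. A wide 3' to 5' difference is a known sign of RNA that is degraded or copied short, and by beta-actin and GAPDH it was widest in control 1. The part of these differences in any of the results that follow was not tested.

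Genes of protein synthesis, lysosomes, extracellular matrix and glia were frequent at the top of the ranking. The highest mean belonged to Apoe, the lipid carrier that astrocytes and macrophages secrete, with a signal of 14.71 in control 1, 14.80 in control 2 and 14.82 in control 3. It was followed by COX1 at 14.68 ± 0.069 (SD, n = 3), the ribosomal protein gene Rpl7a at 14.60 ± 0.032 (SD, n = 3) and COX2 at 14.59 ± 0.031 (SD, n = 3), where COX1 and COX2 are the cytochrome c oxidase subunits encoded by the mitochondrial genome. Actg1 (14.52), a cytoplasmic actin, Ctsb (14.48), a lysosomal protease, and Eef1a1 (14.46), which brings aminoacyl-tRNAs to the ribosome, were also among the highest 10. The cell type genes of highest rank were Mbp at rank 13, Vim at rank 17 and Col3a1 at rank 20. Mbp, a main protein of compact myelin, had signals of 14.40, 14.56 and 14.34 in controls 1, 2 and 3. Vim, the intermediate filament of fibroblasts and immature glia, had signals of 14.46, 14.28 and 14.40. Col3a1, a fibrillar collagen chain, had signals of 14.49, 14.26 and 14.24, and was highest in control 1. Further down the first 40 genes were B2m (14.31), the light chain of MHC class I, Cst3 (14.28), a secreted protease inhibitor, Fabp7 (14.27), a fatty acid-binding protein of radial glia and young astrocytes, Gfap (14.16), the astrocyte filament, and Gpnmb (14.14), a glycoprotein of phagocytes.

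**Figure D1:**
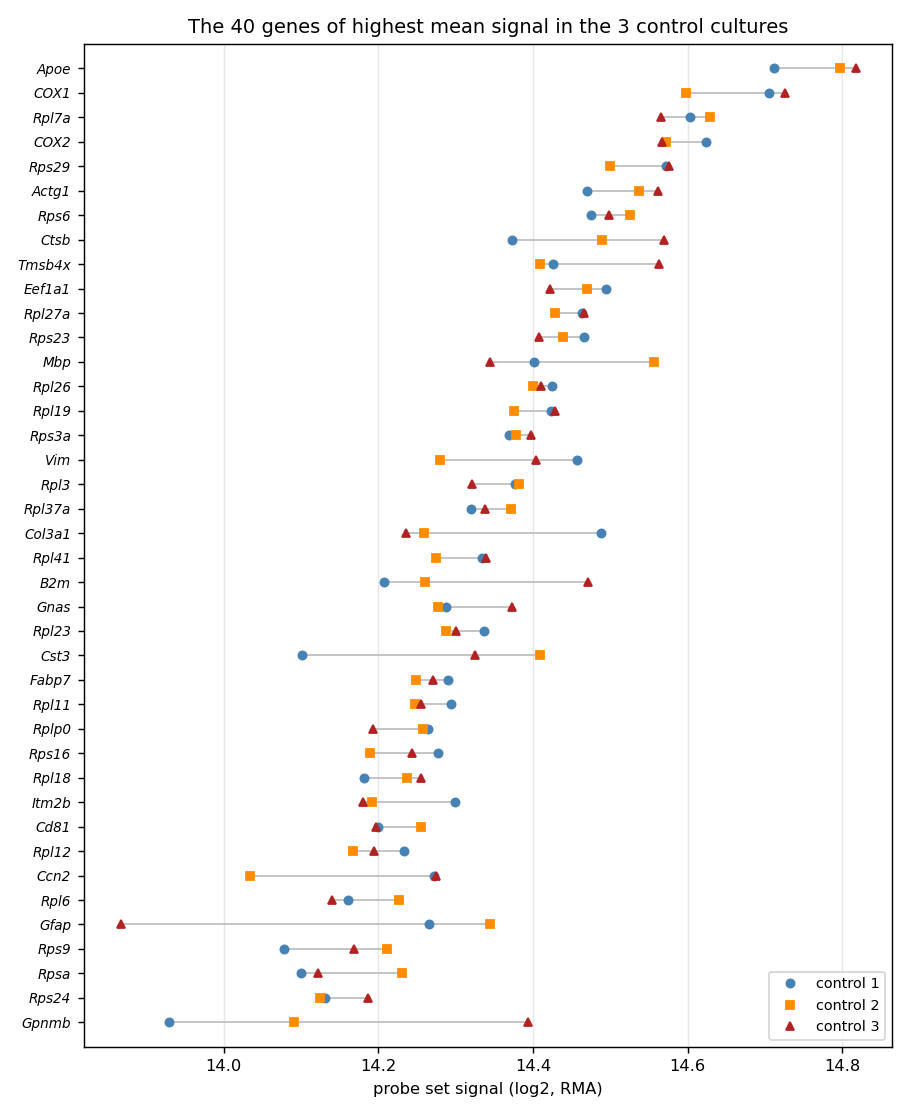
Signal (log2, RMA) of the 40 genes with the highest mean in the 3 control cultures, in order of the mean from top to bottom, with a circle for control 1, a square for control 2 and a triangle for control 3. Most lines, which span the lowest to the highest array, are short, and Gfap and Gpnmb, with SDs of 0.26 and 0.24, have the longest.

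The highest 1% of the ranking comprised 142 genes (0.999% of 14217), with means from 13.70 to 14.78. At its lower edge, Ccdc80 (13.7003) was the last gene inside and Calm2 (13.7001) the first outside. Of the 142 genes, 35 (24.6%) encode cytosolic ribosomal proteins. The list of lysosomal genes contributed 11, fibroblast and meningeal markers 7, microglia and macrophage markers 6, respiratory chain subunits 6, translation factors 5, astrocyte markers 4 and myelin markers 3, where a gene may stand in several lists. No pan-neuronal marker was among the 142. In all, 22 of them stood in a cell type list and 56 in none of the 43 lists. The genes of highest signal also varied little in absolute terms. Their median SD was 0.070, against 0.18 over all genes, and the largest SD among them was that of Lcn2 (0.52), which encodes the iron-sequestering protein lipocalin-2. This evenness is that of the probe sets used here, and other probe sets of the same gene could spread more. Mbp had an SD of 0.11 on the one used and of 1.02 and 0.21 on its others. For Cnp the SDs were 0.24 and 0.97, and for Col1a2 0.095 and 0.12.

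Ribosomal protein genes had the most even signals of the large lists. Of 42 measured, 38 lay in the highest 10% of genes, the class of 1422 genes (10%) with a mean of at least 12.20. Their median was 14.14, against 9.70 over all genes, and their median SD was 0.038. The list held exceptions, with Rpl39 at 9.32, Rps13 at 8.21, Rpl28 at 7.16 and Rpl30 at 6.88, with SDs from 0.070 to 0.36. All 11 measured translation factors and all 17 measured actin and tubulin genes were in the highest 10%, with medians of 13.64 and 13.47. Of 25 respiratory chain subunits 22 were there (median 13.44), of 17 chaperones and folding enzymes 16 (median 13.15), of 13 ubiquitin and proteasome genes 10 (median 12.87) and of 13 glycolytic genes 9 (median 13.28). The lowest of the respiratory chain list, Cox5a, had signals of 9.22, 10.18 and 9.16.

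Lysosomal genes were almost as uniformly high. Of 17 measured, 16 were in the highest 10%, with a median of 13.76. Beside Ctsb they were led by Cd63 (14.03), a membrane protein of lysosomes and late endosomes, Npc2 (14.01), which hands cholesterol out of the lysosome, Ctss (13.96), a protease typical of microglia, and Psap (13.86), the precursor of the saposins. The lowest was Ctsk (11.02), the cathepsin best known from osteoclasts. Ctsd, the main aspartic protease of the lysosome, was lower in control 1 (13.19) than in control 2 (13.97) and control 3 (14.11). Of the 17 genes, 15 were lowest in control 1 (25.8% of all genes were) and 14 were highest in control 3 (26.1% of all genes were). Genes of lipid handling lay lower, with 11 of 17 in the highest 10% and a median of 12.60. Fdps (12.96) and Cyp51 (12.88) of sterol synthesis had SDs of 0.14 and 0.16. In this list, 11 genes were highest in control 2 (34.8% of all genes were) and 12 were lowest in control 1.

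Astrocyte markers had the highest median of the 18 cell type lists, at 13.06, and 13 of 18 measured genes were in the highest 10%. All 6 defining markers exceeded 7.35, the 90th percentile of genes restricted to other organs, which is explained with those genes. Gfap had signals of 14.27, 14.35 and 13.87, and control 3 was the lowest. Gja1 (14.13), the main gap junction protein of astrocytes, S100b (13.72), a calcium-binding protein, Aqp4 (13.49), the water channel, and Glul (13.49), which makes glutamine from glutamate, followed. Of the glutamate transporters, Slc1a3 was at 13.06 ± 0.21 (SD, n = 3) and Slc1a2 at 8.01 ± 0.48 (SD, n = 3). The lowest was the connexin gene Gjb6, at 5.69, 4.70 and 5.10. The list had 13 genes lowest in control 3 (41.6% of all genes were), with a median deviation from the gene's mean of -0.23 there, 0.081 in control 1 and 0.15 in control 2.

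Microglia and macrophage markers came next, with a median of 12.98 and 16 of 24 measured genes in the highest 10%. Lyz2 (14.09), a lysozyme of myeloid cells, Lgals3 (14.04), a galectin of activated phagocytes, Fcer1g (13.97), an adaptor of Fc receptors, and C1qa (13.89), a subunit of the first complement component, were in the highest 1%. The defining markers ranged from Cd68 (13.55), a lysosomal membrane protein of phagocytes, over Aif1 (12.48), Csf1r (12.36), Ptprc (11.70) and Itgam (10.04) to the fractalkine receptor gene Cx3cr1 (8.02). Aif1, which encodes Iba1, had signals of 11.98, 12.67 and 12.78, so that control 1 was below the other arrays. On the other probe set of Aif1 the signals were 7.76, 7.93 and 7.68, with control 3 the lowest. Of the 24 genes, 21 were lowest in control 1 (25.8% of all genes were), with a median deviation of -0.39 there, 0.17 in control 2 and 0.25 in control 3. Spp1, the secreted phosphoprotein osteopontin, was at 12.28 in control 1, 14.02 in control 2 and 14.21 in control 3. Itgam, the integrin chain CD11b, was at 8.81, 10.49 and 10.84, and Trem2, a lipid-sensing receptor of microglia, at 10.76, 12.15 and 12.65. Not all members ran with these. Tmem119 (11.36, 10.95 and 10.48) and P2ry12 (10.81, 10.88 and 10.45), both known from resting microglia, were lowest in control 3. The haemoglobin scavenger receptor gene Cd163 was the lowest of the list, at 4.56.

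Fibroblast and meningeal markers had a median of 12.78, with 19 of 30 in the highest 10%. After Vim and Col3a1 came Sparc (13.99), a collagen-binding matrix protein, Col1a2 (13.88), Fn1 (13.86), the fibronectin gene, and Mgp (13.73), an inhibitor of calcification. The small proteoglycans Lum (12.92) and Dcn (12.83) were also high, whereas the receptor gene Pdgfrb was at 9.49 ± 0.091 (SD, n = 3) and the meningeal transporter gene Slc22a6 at 7.12. Of these 30 genes, 23 were highest in control 1 (39.0% of all genes were), with a median deviation of 0.18. Aspn, the proteoglycan asporin, spread most, at 10.08 in control 1, 7.94 in control 2 and 9.10 in control 3. The wider list of 27 collagens and other matrix genes, part of which are the same genes, had 23 in the highest 10%, a median of 12.83 and 21 highest in control 1. Eln, the elastin gene, was at 11.88, 10.86 and 10.26. The 15 smooth muscle and pericyte genes had a median of 11.25, with 5 in the highest 10%, led by Tagln (13.99) and Tpm2 (13.58), both of the contractile apparatus. Acta2, smooth muscle actin, was at 13.14 in control 1 and at 11.58 and 11.67 in controls 2 and 3. Of the 15, 12 were highest in control 1 and 11 lowest in control 2 (32.4% of all genes were), and the median deviations were 0.49, -0.40 and -0.071. Rgs5, a pericyte marker, was at 6.17. Igf2 (13.72) and H19 (13.95), neighbouring imprinted genes of the embryo, both lay in the highest 1%.

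Oligodendrocyte and myelin genes reached from the top of the ranking to its lower end. The median of 17 measured genes was 11.83, and 8 were in the highest 10%. After Mbp came Cldn11 (13.96), the tight junction protein of myelin, Cnp (13.93), an enzyme of non-compact myelin, Sirt2 (13.40), a deacetylase, and Olig1 (12.87), a lineage transcription factor. Mag (12.42), Mobp (12.35) and Mog (10.13), which appears late in the lineage, were also above the 90th percentile of the other-organ genes. The lowest were Opalin (6.18) and Olig2 (6.13), the partner of Olig1, whose probe set gave 5.92, 6.34 and 6.12. All 17 genes were highest in control 2 (34.8% of all genes were) and 15 were lowest in control 3 (41.6% of all genes were). The median deviations were -0.033, 0.49 and -0.37. Mog was at 10.06 in control 1, 10.85 in control 2 and 9.48 in control 3. Ugt8, which makes the myelin lipid galactosylceramide, was at 11.04, 12.66 and 11.79. Of 9 genes of oligodendrocyte precursors, Pdgfra (13.08), the receptor for platelet-derived growth factor, and Vcan (12.68) were in the highest 10%, and Cspg4, which encodes NG2, was at 8.05. These lists share cells with others, since Pdgfra and Vcan are also genes of fibroblasts.

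Genes of dividing cells lay mostly above the median of all genes. Of 22 measured, 1 was below it, and their median was 11.02. Pcna, the sliding clamp of DNA replication, was at 13.64, Cdk1, the mitotic kinase, at 12.08, Mki67 at 11.98 and Top2a at 11.45. Mki67 had signals of 11.91, 11.70 and 12.34. Of the 22 genes, 18 were highest in control 3 (26.1% of all genes were), with a median deviation of 0.26. Among 12 genes of neural progenitors, Sox2 (12.64) and Nes (10.92) were above the median of all genes and Pax6 (10.08) as well, while Neurog2 (5.63) and Sox1 (4.72) were near the lower end.

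Neuronal genes lay lower. Of 26 pan-neuronal markers, 1 was in the highest 10% and 17 were below the median of all genes (50.0% of all genes are), with a list median of 9.03. The highest were Rtn1 (12.46), a reticulon of the endoplasmic reticulum, Eno2 (12.09), neuron-specific enolase, Gap43 (11.71), a growth cone protein, and Map2 (11.55). Tubb3, the neuronal beta-tubulin, was at 9.30, 10.11 and 9.41, with control 2 the highest. On the probe sets used here, 4 of the 6 defining markers exceeded 7.35. Rbfox3 (7.26), which encodes NeuN, and Syt1 (5.97), the calcium sensor of vesicle release, did not. Nefl, the light neurofilament chain, was just above this value at 7.49 ± 0.51 (SD, n = 3). On the other probe set, Tubb3 had a mean of 5.47 and Map2 one of 5.58, both below 7.35. For Nefl (7.36) and Rbfox3 (7.09) the other probe set stayed on the same side of it. Snap25, a SNARE protein of synaptic vesicle fusion, was at 8.31 in control 1, 8.84 in control 2 and 10.62 in control 3, and Vsnl1, a neuronal calcium sensor, at 6.53, 6.54 and 8.68. Other members had another order, and Dcx, a marker of young migrating neurons, was at 8.25, 9.26 and 7.75, with control 3 the lowest. The array that was highest was control 2 for 14 of the 26 genes (34.8% of all genes) and control 3 for 9 (26.1% of all genes).

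Genes of transmitter identity were at the lower end. Of 19 measured, 17 were below the median of all genes, none was in the highest 10%, and the list median was 6.85. Penk, the precursor of enkephalins in dorsal horn interneurons, was at 11.73, 11.43 and 11.81. Gad1, which makes GABA, was at 11.43, 11.19 and 10.89. On its other probe set Gad1 was at 6.41, 6.89 and 6.91, below 7.35. The partner gene Gad2 was at 4.99, and the vesicular transporter gene Slc32a1, shared by GABA and glycine neurons, at 5.31, 5.55 and 6.52. Slc17a6, the vesicular glutamate transporter of spinal excitatory neurons, was at 9.31 in control 1, 7.34 in control 2 and 9.41 in control 3. The glycine transporter gene Slc6a5 (6.18) and Chat (6.15), which makes acetylcholine in motor neurons, had SDs of 0.061 and 0.029 and lay within the range of genes restricted to other organs. Of 14 voltage-gated sodium and potassium channel genes, 12 were below the median of all genes, and the highest was Scn7a (10.94), a sodium channel also found in glia. Of 19 transmitter receptor and chloride transporter genes, 16 were below it. The exception in the highest 10% was Slc12a2 (13.47), the chloride importer NKCC1 of glia and young neurons, and Glrb (11.99), the glycine receptor beta chain, came next. Slc12a5, the chloride exporter KCC2 of mature neurons, was at 8.24, 8.29 and 9.22.

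As a reference for signal without the tissue, 56 genes restricted to liver, pancreas and gut, testis, eye or heart were listed. Their median was 5.89, their 90th percentile 7.35, and 54 of them were below the median of all genes. The exceptions were Pnlip, a pancreatic lipase, at 11.71, 12.52 and 11.45, and Tnnt2, cardiac troponin T, at 11.38, 9.49 and 9.81. The second probe set of Tnnt2 gave a mean of 4.51. In all, 3379 of 14217 genes were at or below 7.35. Endothelial markers had a median of 7.15 over 13 genes, and none of the 3 measured defining markers was above 7.35. Pecam1 was at 6.82, Kdr, a receptor for vascular growth factors, at 6.37 and Cldn5, the tight junction protein of brain vessels, at 5.62. The 4 members above 7.35 were Eng (10.11), Esam (9.62), Slco1a4 (9.47) and Tek (7.65). The lists of lymphocytes and mast cells (median 6.16), skeletal muscle (6.55), cartilage and bone (6.56), sensory ganglion neurons (6.75) and erythroid cells (6.86) also had medians below 7.35, and each held members above it. Of 12 lymphocyte and mast cell genes these were Cd8a (9.61), a T cell coreceptor, and Cd4 (7.70), and neither was a defining marker. In each of the other 4 lists, 1 defining marker was above it. These were Acta1 (8.94), skeletal muscle actin, Acan (7.46), the cartilage proteoglycan aggrecan, Scn10a (7.94), a sodium channel of sensory neurons, and Hbb (8.63), a haemoglobin chain. The further members above it were Des (7.68), Tnnt3 (7.67) and, barely, Myog (7.35) of skeletal muscle, Avil (8.41) and Calca (7.80) of sensory neurons, Slc4a1 (7.62) of erythroid cells and Spp1 of bone, which is also a gene of macrophages. Schwann cell genes were mixed, with Pmp22, a gene of peripheral myelin and fibroblasts, at 13.02 and Prx, periaxin, at 8.65. Of the ciliary genes of ependyma, Foxj1 was at 9.45, and all 7 were highest in control 1 (39.0% of all genes were). On the probe sets used here, all measured defining markers of astrocytes, oligodendrocytes, microglia and fibroblasts thus exceeded 7.35. So did those of oligodendrocyte precursors, neural progenitors, dividing cells, Schwann cells and ependyma. Of neurons 4 of 6 did, of transmitter types 2 of 6, of smooth muscle and pericytes 3 of 4 and of heart muscle 2 of 3. Those of endothelium were at the level of other-organ genes. For Schwann cells and ependyma only 2 defining markers each were measured. In their full lists 5 of 8 and 4 of 7 genes exceeded 7.35, and Foxd3 (5.41) and Tekt4 (6.08) were the lowest. Most of the 14217 genes exceeded 7.35 as well, and the spinal origin of the cells was not tested.

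**Figure D2:**
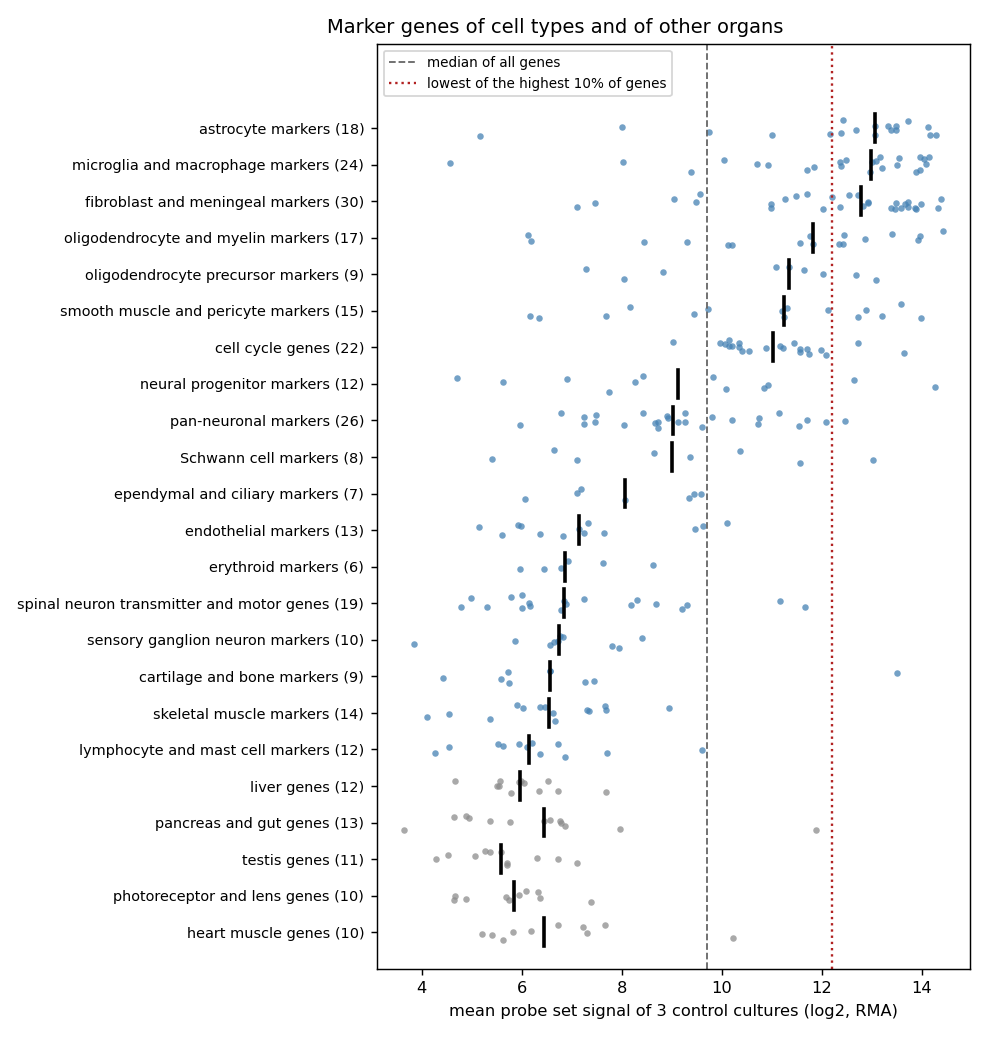
Mean signal of the 3 control cultures (log2, RMA) for each measured gene of 18 cell type lists (blue) and 5 lists of genes restricted to other organs (grey), with the number measured in brackets, a black bar at the list's median, a dashed line at the median of all genes (9.70) and a dotted line at the lowest gene of the highest 10% (12.20). The lists of astrocytes, microglia and fibroblasts have their medians to the right of the dotted line, and the pan-neuronal median lies left of the dashed line.

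The spread between the 3 cultures was small for most genes. The median SD over 14217 genes was 0.18, and 1302 genes (9.16%) had an SD of at least 0.5. An SD of at least 1 was found for 151 genes (1.06%), with Synpr (1.00) the last inside and Atf3 (0.998) the first outside. Genes of middling signal spread most. With the ranking divided into 10 classes of equal size, the median SD was 0.13 in the highest class, 0.27 in class 7 from the top and 0.091 in the lowest, and the highest class held 2 of the 151 genes. Control 1 and control 2 differed by at least 2-fold in 3.25% of genes, control 1 and control 3 in 3.97% and control 2 and control 3 in 4.46%. For each gene the array farthest from the median of the 3 was noted. Among the 151 variable genes it was control 3, on the high side, in 100, which is 0.703% of all genes and 66.2% of the 151. Over all genes this pattern held for 13.2%. Control 1 was farthest and high in 12 of the 151 genes and farthest and low in 9, control 2 in 11 and 16, and control 3 farthest and low in 3. Among the 1302 genes with an SD of at least 0.5, control 3 was farthest and high in 32.0%. Of the 151 genes, 36 had further probe sets, 46 in all, and on 33 of these (71.7%) the same array was again the extreme on the same side. Over all genes, a given array was the highest or the lowest in 25.8% to 41.6%. Of the 46 further probe sets, 24 had an SD of at least 0.5 and 17 one of at least 1. The poly-A spike-in signals were also highest in control 3, and their part was not tested.

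**Figure D3:**
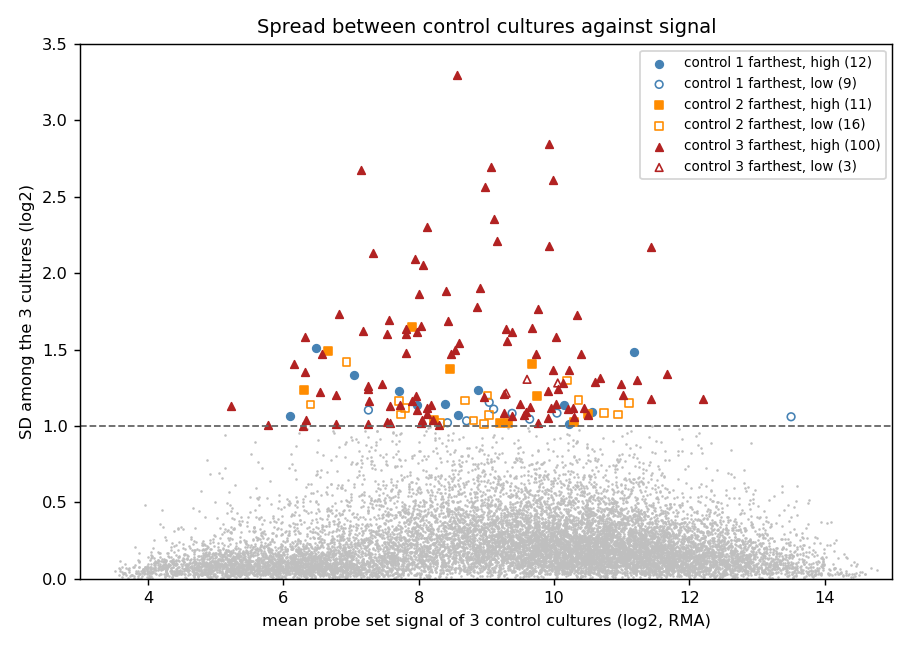
SD among the 3 control cultures (log2) against the mean signal (log2, RMA) for 14217 genes. Genes with an SD of at least 1 (dashed line) carry the colour and shape of the array farthest from the median of the 3, filled where it is high and open where it is low, with the number of genes in brackets; filled triangles, for control 3 high, are 100 of 151.

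Cd5l, a secreted glycoprotein of tissue macrophages, led the genes of largest spread with signals of 7.22 in control 1, 6.17 in control 2 and 12.33 in control 3, an SD of 3.30. Mmp12, macrophage elastase, was at 7.77, 8.83 and 13.15, and Mmp9, gelatinase B, at 6.81, 8.32 and 12.05. In all of these, control 3 stood far above both other arrays. Of the 24 microglia and macrophage markers, 3 were among the 151 variable genes, namely Itgam, Cd74 and Spp1, and in all 3 control 1 was farthest, on the low side. Cd36, a scavenger receptor for fatty acids and oxidized lipoproteins, was at 7.94, 9.09 and 12.93 and Fabp4, a fatty acid-binding protein of macrophages and adipocytes, at 9.71, 10.72 and 13.88. They were the 2 variable genes of the 17 in the lipid list, of which 6 were highest in control 3 and 11 in control 2 (26.1% and 34.8% of all genes were). Pparg, the nuclear receptor that binds fatty acid derivatives, was at 5.37, 5.43 and 8.14. Cxcl2, a chemokine for neutrophils, was at 7.54, 7.45 and 11.94, and Ccr1, a receptor for inflammatory chemokines, at 6.23, 7.32 and 10.28. Gdf15, a stress-induced cytokine, was at 7.64, 7.87 and 11.83. Spic, a transcription factor of iron-recycling macrophages, was at 5.51, 5.94 and 8.25. Among the 40 genes of largest SD, control 3 was farthest and high in 37. The other 3 were Fcnb, a ficolin of myeloid cells, and Orm1, an acute phase protein, both highest in control 2, and Shisa3, highest in control 1.

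**Figure D4:**
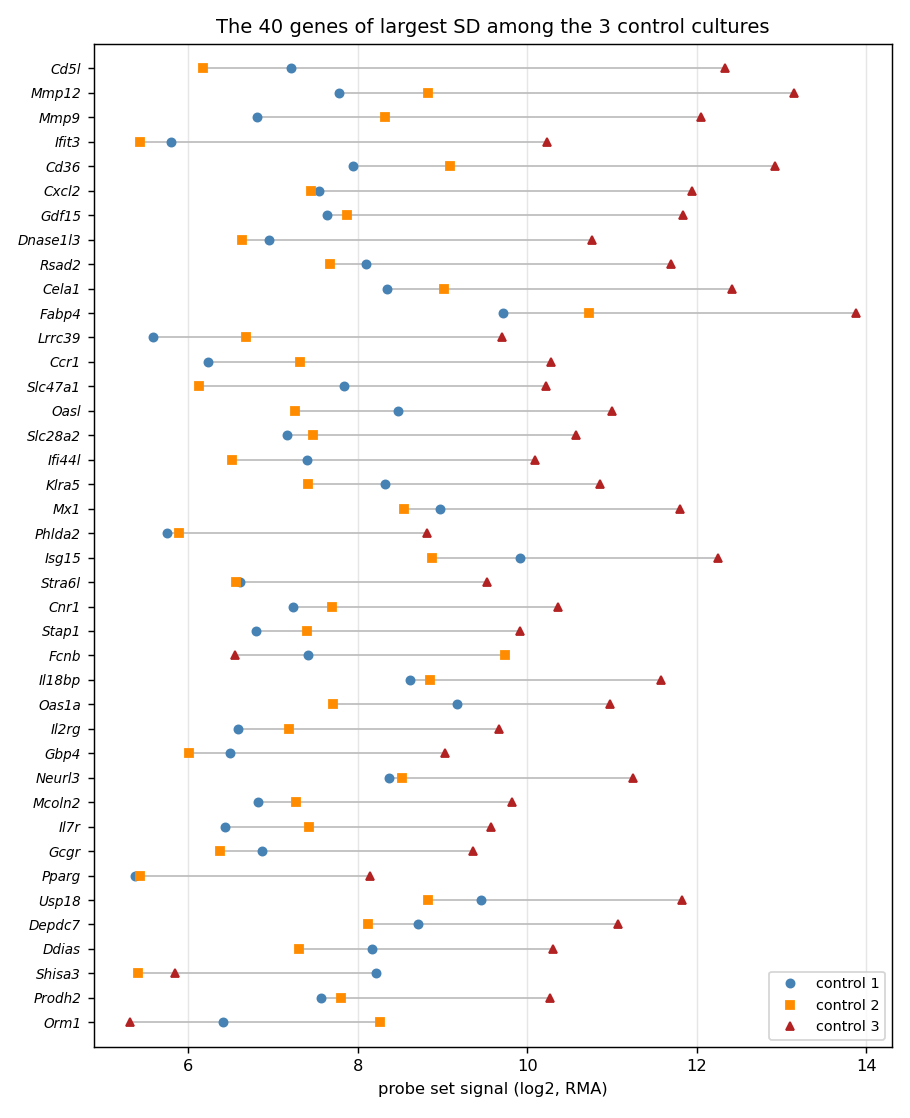
Signal (log2, RMA) of the 40 genes with the largest SD among the 3 control cultures, in order of SD from top to bottom, with a circle for control 1, a square for control 2 and a triangle for control 3. The triangle lies apart on the right in 37 genes, and Fcnb, Shisa3 and Orm1 are the exceptions.

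Genes with a high mean were found among the variable genes too. In the upper part of the ranking, above the median of all genes, 46 of the 151 were located. Beside those already named, Isg15 (9.91, 8.88 and 12.25), Slamf9, a receptor of myeloid cells (10.54, 11.33 and 13.16), and Pilra, an inhibitory receptor of myeloid cells (10.37, 10.59 and 12.73), were highest in control 3. Ccl9, a chemokine of macrophages, was the last gene in the highest 10% through its signal in control 3, at 11.56, 11.48 and 13.56. Prss35, a serine protease-like protein, ran the other way, with 12.78 in control 1, 9.84 in control 2 and 10.93 in control 3. Chi3l1, a chitinase-like protein of reactive astrocytes and macrophages, was at 10.08, 11.33 and 8.76, with control 3 the lowest.

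Interferon response genes formed the list with the widest spread. Type I interferons are secreted by cells that sense viral nucleic acid, and they turn on antiviral effector genes, many of which carry interferon-stimulated response elements in their promoters. Of 35 measured genes, 16 had an SD of at least 1, and the list's median SD was 0.94. All 35 were highest in control 3 (26.1% of all genes were) and 30 were lowest in control 2 (32.4% of all genes were). The median deviations were -0.22 in control 1, -0.68 in control 2 and 0.91 in control 3. Ifit3, an antiviral protein that binds RNA complexes, was at 5.79, 5.43 and 10.23. Rsad2, viperin, which makes a chain-terminating nucleotide, was at 8.10, 7.67 and 11.69. Oasl was at 8.47, 7.26 and 11.00, and Oas1a, an oligoadenylate synthetase that senses double-stranded RNA, at 9.17, 7.71 and 10.98. Mx1, an antiviral GTPase, was at 8.96, 8.54 and 11.80. In these 5 genes control 2 was the lowest and control 3 the highest. Irf7, the transcription factor that amplifies interferon production, was at 10.30, 8.98 and 11.91. In Irf7, as in Oas1a, control 1 lay well between these extremes. Mx2 (10.69, 8.71 and 11.16) and Oas1b (7.11, 5.44 and 8.26) differed more on the low side, in control 2. By level the list was ordinary, with a median of 10.03 and 1 gene, Ifi27 (13.65, 13.48 and 13.74), in the highest 10%. The list does not hold every gene that interferon induces. Ifitm3, an interferon-induced membrane protein in the highest 1%, stood outside it at 13.75, 13.81 and 13.60, with control 3 the lowest. Ddx60 (9.65, 8.83 and 11.49), also outside it, was highest in control 3.

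Promoters of the interferon genes of widest spread that hold the core of the response element on either strand, written GAAA, then any 2 bases, then GAAA, are shown because the interferon list had the widest spread between the control cultures. Sequences are from RefSeq on build GRCr8 and are written from 5′ to 3′ along the strand of the gene. The capitals mark the matches, some of which overlap. Ifit3 is shown with 250 bases before its annotated start (chr1:241527076-241527325, plus strand), Rsad2 with the 125 bases of such a window that are farthest from its start (chr6:48788246-48788370, minus strand), Ifi44l with a pair of windows of 30 bases (chr2:243328622-243328651 and chr2:243328654-243328683, plus strand) and Oas1a with a window of 30 bases (chr12:41330418-41330447, plus strand). The 125 bases of the Rsad2 window that are nearest to its start lie inside an annotated gene span and are not printed.
Ifit3: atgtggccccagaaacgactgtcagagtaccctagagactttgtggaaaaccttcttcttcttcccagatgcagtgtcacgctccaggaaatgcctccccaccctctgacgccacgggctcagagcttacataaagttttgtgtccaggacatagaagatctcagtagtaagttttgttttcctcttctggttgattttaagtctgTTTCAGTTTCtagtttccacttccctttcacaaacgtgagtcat
Rsad2: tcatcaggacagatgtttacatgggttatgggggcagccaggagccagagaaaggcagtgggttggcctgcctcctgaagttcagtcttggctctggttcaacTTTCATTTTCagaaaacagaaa
Ifi44l, distal: tctgcttggcTTTCTTTTTCtcatcctgtt
Ifi44l, proximal: ttccagtgagGAAAATGAAAgtaaagggca
Oas1a: ctctcggGAAATGGAAACTGAAAatcttgt
The match of Ifit3 begins 44 bases before the start and that of Rsad2 147 bases before it. In Ifi44l the matches begin 91 and 59 bases before the start, and Oas1a holds 2 overlapping matches that begin 41 and 35 bases before it. The 94 bases nearest to the start of Ifi44l and the 43 nearest to that of Oas1a lie inside the annotated gene span. The matches of Ifi44l and Oas1a are thus within the annotated span of the gene and not upstream of it. Within 250 bases before the start, the motif was present in 902 of 27457 promoters of the table (3.29%) and in 15 of 26 promoters of the interferon list that could be matched (57.7%). It was present in 15 of 123 promoters of genes with an SD of at least 1 (12.2%), in 8 of 112 once the interferon list was left out (7.14%) and in 1 of 37 ribosomal protein promoters (2.70%). Among the genes of the array it was present in 311 of 11733 promoters (2.65%), and among the highest 1% by level in 7 of 118 (5.93%). A match describes the letters of the window only.

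The lists of chemokines and cytokines and of MHC genes also had most of their genes highest in control 3. Over all genes, control 3 was the highest in 26.1% and control 1 the lowest in 25.8%. Of 23 chemokines and cytokines, 17 were highest in control 3 and 6 had an SD of at least 1, and the median deviations were -0.29, -0.023 and 0.42. Cxcl10, which attracts T cells, was at 8.64, 9.16 and 11.40, Il1b, interleukin-1 beta, at 8.84, 8.68 and 10.60, and Il6 at 7.36, 7.54 and 9.23. The chemokine of highest level, Ccl2, which attracts monocytes, had signals of 11.82, 12.98 and 13.03, so that control 1 stood apart on the low side. Of 12 MHC genes, 8 were highest in control 3 and 8 lowest in control 1. RT1-Da, a class II chain, was at 7.26, 8.86 and 9.16 and the invariant chain gene Cd74 at 8.22, 9.55 and 10.37. Of 12 complement genes, 7 were lowest in control 1, with median deviations of -0.23, 0.044 and 0.044. Their highest array was not shared, as 5 were highest in control 2 (34.8% of all genes were) and 5 in control 3. C3, the central component, was at 13.27, 14.02 and 12.81, with control 2 the highest. Serping1, the inhibitor of the first component, was at 13.03, 13.49 and 14.23. Of 17 stress and DNA damage genes, 12 were highest in control 3, among them Ddit3, a factor of the endoplasmic reticulum stress response, at 9.98, 9.78 and 11.73 and Mdm2, the ligase that degrades p53, at 11.61, 11.55 and 12.67. Of 17 immediate early genes, 10 were highest in control 3. Of the 151 variable genes, 114 stood in none of the lists.

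**Figure D5:**
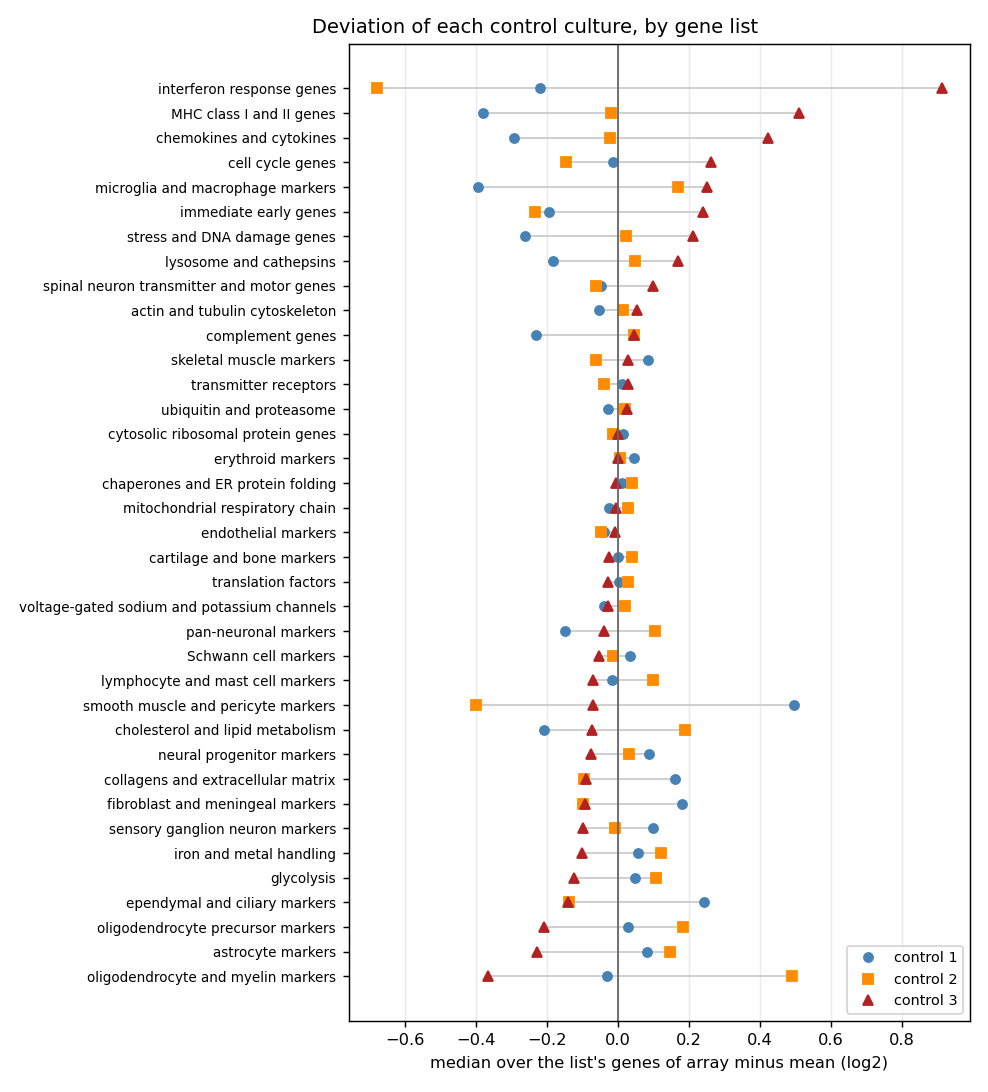
Median over each list's genes of the array's signal minus the gene's mean over the 3 control cultures (log2), with a circle for control 1, a square for control 2 and a triangle for control 3, for cell type and functional lists in the order of control 3. Interferon response genes (-0.22, -0.68 and 0.91) and oligodendrocyte and myelin markers (-0.033, 0.49 and -0.37) lie at opposite ends, and over all genes the medians were 0.025, 0.0023 and -0.036.

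Smaller groups of genes set the other arrays apart. The 12 genes with an SD of at least 1 that were high in control 1 included Gas2 (10.31, 8.15 and 8.17), a cytoskeletal protein of growth-arrested cells, Sema3d (11.81, 9.84 and 10.01), a secreted guidance cue, and Nrk (9.24, 7.04 and 7.63), a kinase. They also held Tnnt2 of the other-organ reference. The 11 that were high in control 2 included the chemokines Cxcl6 (8.50, 11.23 and 9.28) and Cxcl9 (8.07, 9.99 and 7.33) and Csf3r (8.01, 9.35 and 7.31), the receptor for granulocyte growth factor. Cxcl9 is a target of interferon gamma, and its highest array was not that of the interferon list. The 3 that were low in control 3 were Tnn (10.14, 10.55 and 8.11), tenascin-N, Chi3l1 and Rlbp1 (9.58, 10.34 and 7.96), a retinoid-binding protein of glia in the retina. The 3' to 5' difference of beta-actin was widest in control 1, and its part in the genes that set control 1 apart was not tested.

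Of the sex-linked genes, Xist, the RNA that coats the inactive X chromosome, was at 12.56, 10.85 and 12.27, and lowest in control 2. The Y-linked Uty was at 11.25, 11.10 and 11.26 and Eif2s3y at 9.16, 9.18 and 10.35, while Sry was at 5.90, 5.68 and 5.42, in the range of the other-organ genes. Uty and Eif2s3y have close relatives on the X chromosome, from which their probe sets may also take signal.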

How the data were processed

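Gene expression of the 3 control cultures was measured with 1 Affymetrix Rat Genome array each, from 100 ng of total RNA. The deposited values are log2 signals that the authors made with the RMA algorithm, whose version is not given in the sources used here, for 31099 probe sets of the manufacturer's definition. The paper itself worked with custom EntrezGene probe definitions by its methods, and no detection calls were used here. The values were not normalized again.

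Of the probe sets, 20826 are paired with 1 gene and were used, and 57 control probe sets, 436 paired with several genes and 9780 with none were left out. For each of 14217 genes the brightest probe set, by its mean on the 6 arrays of the series, was taken, and 4525 genes had more than 1. Probe sets were named through the platform annotation, with symbols of 14167 genes looked up in the current RefSeq annotation. Mean, SD, range and rank over the 3 arrays were computed with Python 3.11.15, pandas 2.3.3 and numpy 2.4.6. As there is 1 group, no test was made. The number of arrays limits the precision, and the SD holds biological and technical spread together. The SD limit and the choice of the farthest array were tested on simulated data with known shifts and the same spread for every gene. The ranking, the lists and the promoter search were not tested in this way.

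The 43 gene lists (829 entries, 686 measured) and the members were chosen with earlier results of these data known. Genes were named by a rule, namely the 40 of highest mean, the 40 of largest SD, the 20 of largest SD above the median level and, of each list, the defining markers, the 5 highest, the 3 of largest SD and the lowest. Sex-linked genes were all named. Promoters were those of the 4 interferon genes of largest SD that hold the motif. Named outside the rule, after their values were seen, were Calm2, Ccdc80, Ccl9, Csf3r, Cxcl6, Cxcl9, Cyp51, Dcx, Gas2, H19, Ifitm3, Igf2, Il1b, Il6, Lcn2, Mdm2, Mgp, Neurog2, Nrk, Oas1b, P2ry12, Rlbp1, Rpl39, Sema3d, Spic, Synpr, Tmem119, Tnn and Trem2, and the genes of the closing observations.

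The alternatives were another choice of probe set (the highest over the controls, or the mean of all of a gene), renewed quantile normalization, median centring, each array left out in turn, other limits of the classes, the range in place of the SD and the mean in place of the list median. The exclusion of probe sets named with _s_at or _x_at, which can share sequence with other genes, was added after seeing the data.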

Additional observations from a re-analysis of the deposited data

How the results depend on the processing

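The number of ribosomal protein genes in the highest 1% (35) was 33 to 35 under every other treatment of the values, 34 in the highest 100 genes and 38 in the highest 5%. Of the 142 genes, 108 remained in the class when all probe sets of a gene were averaged and 133 to 135 when an array was left out. Marker genes of cell types in the highest 10% numbered 69 and ranged from 60 to 70, and those of functional lists numbered 195 and ranged from 174 to 197. With the highest 5% or 25% as the class they were 51 or 101 and 164 or 235.

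The count of genes with an SD of at least 1 (151) ranged from 132 to 244 when an array was left out. The count was 244 when control 1 was left out, 231 when control 2 was and 132 when control 3 was, and 42 of the 151 genes remained in the last case. It was 46 among genes at or above the median level and 1302 with an SD of at least 0.5, and 122 by a range of at least 2. Control 3 was farthest and high in 66.0% to 70.0% of the variable genes under the treatments of the values that kept all arrays and the SD limit of 1. The interferon list's median deviation in control 3 (0.91) ranged from 0.83 to 1.08 in the settings that kept all arrays. It was 0.56 without control 2 and 0.86 without control 1. These 2 values are deviations from the mean of 2 arrays and cannot be compared directly with the others. Of 30 list deviations, 3 close to 0 changed sign in a setting with all arrays, those of astrocyte markers in control 1, of chemokines and cytokines in control 2 and of pan-neuronal markers in control 3.

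No paired analysis was possible because only control arrays entered and no groups were compared. Without detection calls, signals near those of other-organ genes cannot be told from background.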

Other observations

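Among the 56 genes of the highest 1% that stood in none of the lists were several of secreted and membrane proteins. Itm2b, a membrane protein that binds the amyloid precursor, was at 14.30, 14.19 and 14.18 in controls 1, 2 and 3, App, the amyloid precursor itself, had a mean of 13.97, and Prnp, the prion protein, one of 13.82. Ccn2, a matrix-associated growth factor, was at 14.27, 14.03 and 14.27, and Fstl1, a secreted glycoprotein of mesenchymal cells, at 14.33, 13.94 and 13.96, with control 1 the highest. Cpe, the carboxypeptidase that processes neuropeptides, was at 14.10, 13.94 and 13.94. The antioxidant genes Gpx1 (14.14), Txn1 (14.08) and Prdx2 (13.95) were there too, and Gpx1 was highest in control 3 (13.99, 14.07 and 14.34).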
